A study of Mus musculus with 8 samples.

Results

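The genes described here encode CCN proteins and other targets of TGF-β and YAP in the extracellular matrix and at the cytoskeleton. They are Ccn1, Ccn2, Ccn4, Ccn5, Thbs1, Ankrd1 and Amotl2, taken by their gene symbol in the array annotation, and are 7 of the 16502 genes that the arrays name. Each was measured by 1 probe. Of the 7 genes, 6 exceeded the background of 2 or more of the 8 arrays and could be tested, as could 9390 genes in all. Ccn5 did not pass this filter.

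CCN proteins are secreted, cysteine-rich proteins of the pericellular matrix that bind integrins and proteoglycans and modulate growth factors. YAP and its relative TAZ are transcriptional coactivators that the Hippo kinases keep out of the nucleus. In the nucleus they bind TEAD factors, and Ccn1, Ccn2, Ankrd1 and Amotl2 are widely used readouts of their activity. TGF-β signals through Smad2 and Smad3, and induces Ccn2 and Thbs1 in many mesenchymal cells, whereas BMP-2 signals through Smad1, Smad5 and Smad8.

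C2C12 is a mouse myoblast line that can enter the osteoblast lineage under BMP-2, and dynasore is a small molecule that inhibits the GTPase dynamin and thereby endocytosis. The 4 groups, each with 2 biological duplicates, were DMSO (0.05% vehicle), BMP-2+DMSO (30 nM BMP-2 in vehicle), Dynasore (40 µM) and BMP-2+Dynasore. All cells were kept without serum, for 4 h before the stimulation and with inhibitor or vehicle for the last 2 h of these, and BMP-2 acted for 6 h. The comparisons ask how the genes responded to dynasore, how they responded to BMP-2, and whether the BMP-2 response was the same when dynamin was inhibited.

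Upstream sequence was at hand for Ccn1, Amotl2 and Ankrd1, and is shown because TEAD factors bind near the starts of such targets. The 250 bases before the annotated start (RefSeq, GRCm38.p6, 5′ to 3′ on the strand of the gene) were searched on both strands for the TEAD motif GGAATG, which reads CATTCC on the other strand. Its matches stand in capitals. The Ccn1 stretch is chr3:145649986-145650235 on the minus strand, that of Amotl2 chr9:102717554-102717803 on the plus strand and that of Ankrd1 chr19:36119845-36120094 on the minus strand.
Ccn1: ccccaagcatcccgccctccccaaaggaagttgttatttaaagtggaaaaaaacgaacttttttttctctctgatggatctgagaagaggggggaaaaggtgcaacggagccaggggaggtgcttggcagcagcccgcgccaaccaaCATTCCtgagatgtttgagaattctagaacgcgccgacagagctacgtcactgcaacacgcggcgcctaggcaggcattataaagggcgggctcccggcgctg
Amotl2: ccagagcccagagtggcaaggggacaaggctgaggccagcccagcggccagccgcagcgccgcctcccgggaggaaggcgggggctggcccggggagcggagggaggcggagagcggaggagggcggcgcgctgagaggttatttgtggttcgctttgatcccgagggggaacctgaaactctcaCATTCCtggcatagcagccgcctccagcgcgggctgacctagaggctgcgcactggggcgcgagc
Ankrd1: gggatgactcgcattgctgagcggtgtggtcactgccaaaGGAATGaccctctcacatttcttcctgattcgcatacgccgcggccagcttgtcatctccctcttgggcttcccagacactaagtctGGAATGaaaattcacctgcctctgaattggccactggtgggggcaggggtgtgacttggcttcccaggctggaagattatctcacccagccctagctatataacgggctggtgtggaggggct
Ccn1 had 1 match, from base 103 to base 98 upstream of the start, and Amotl2 had 1, from base 65 to base 60. Ankrd1 had 2 matches, from base 210 to 205 and from base 123 to 118. Of 32851 annotated promoters, 12.6% held this motif in the same window and 1.02% held it more than a single time. The Smad motif CAGAC, which reads GTCTG on the other strand, occurred 2 times in Ankrd1, at bases 137 to 133 and 127 to 123, where the latter shares its last base with the nearer TEAD match. It was not found in the windows of Ccn1 and Amotl2, and 42.2% of all promoters held it, with 11.7% holding it at least 2 times. The AP-1 motif TGANTCA was in none of the 3 windows and in 6.75% of all promoters. These are matches of letters, and no binding was measured.

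**Figure D1:**
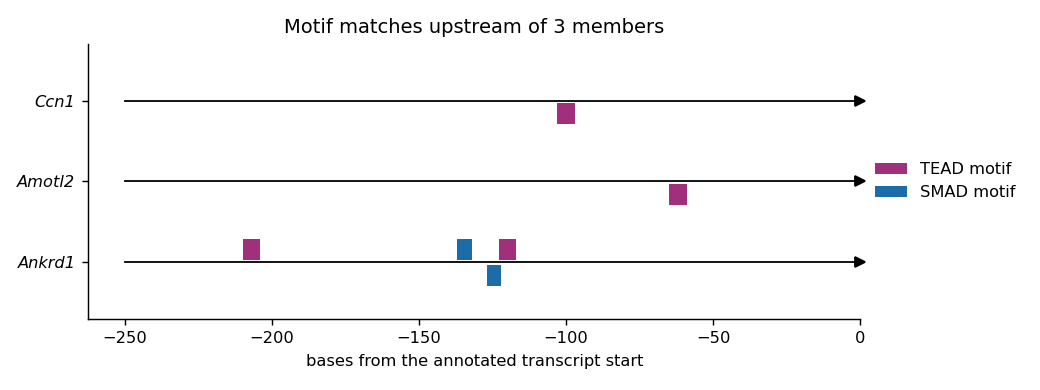
Matches of the TEAD and Smad motifs in the 250 bases before the annotated transcript start of Ccn1, Amotl2 and Ankrd1. The horizontal axis is the distance from the start in bases, boxes above a line are matches on the strand of the gene and boxes below it are on the other strand. Ankrd1 carried 2 TEAD matches, Ccn1 and Amotl2 carried 1 each.

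All intensities below are the authors' normalized values, on a linear scale, in the order replicate 1 and replicate 2. Changes are differences of log2 values after background correction and quantile normalization, with their standard error (SE), and p-values are from limma, adjusted over all 10244 tested probes. BMP-2+DMSO replicate 2 stood apart from the other arrays. Its background limit, the brightness that a probe had to exceed, was 258 against 17.2 to 62.0 elsewhere, and 7429 of 18138 probes exceeded it against 8874 to 9463. Its dim probes peaked at 242, against -1.20 to 45.2 elsewhere. Intensities printed from this array thus contain a raised background. Its log2 values correlated with those of the other arrays at 0.741 to 0.805, and the duplicates of the remaining groups with each other at 0.979 to 0.995. Changes that involve BMP-2+DMSO are therefore given from both arrays and from each alone. The comparisons that leave this group out were fitted on 7 arrays, without BMP-2+DMSO replicate 1, whose absence from the fit keeps the difference between those duplicates out of the spread. Of the markers of myoblasts, Des and Vcam1 were above background on all 8 arrays, Myod1, Myog and Itga7 on 6 or 7 and Myf5 on 0. Of 9 markers of blood, endothelial, epithelial, liver and fat cells, 8 were above background on 0 arrays, and Krt8 on 7.

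All 6 tested genes were called lower in Dynasore than in DMSO, at an adjusted p under 0.05 in limma. Thbs1 was 6.12-fold lower, Ankrd1 3.77-fold, Ccn2 3.44-fold, Amotl2 3.06-fold, and Ccn1 and Ccn4 were both 1.70-fold lower. Across all tested probes, 19.5% were called lower and 17.9% were called higher at this threshold. Called changes with dynasore were thus common and went both ways, whereas the 6 genes went 1 way. The set was chosen with earlier results of these data known, so this shared direction is only a description. All 6 were above background on every DMSO and every Dynasore array. RNA was taken from whole cultures, in which fewer cells that express a gene and less RNA per cell cannot be told apart.

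Ccn2, the connective tissue growth factor, is a matricellular protein that promotes matrix production. Its intensity was 1183 and 1229 in DMSO and 309 and 327 in Dynasore. The Dynasore arrays lay close together and far below the DMSO arrays, with a log2 change of -1.78 (SE 0.15, adjusted p = 7.7e-06 in limma), and 1.13% of tested probes had a lower change. Ankrd1 encodes a cardiac and skeletal muscle ankyrin repeat protein that shuttles between sarcomere and nucleus. It read 3107 and 3109.9 in DMSO and 793 and 799.5 in Dynasore. The duplicates were nearly equal in both groups, and the log2 change was -1.91 (SE 0.11, adjusted p = 4.6e-07).

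Thbs1 encodes thrombospondin 1, a matrix glycoprotein that can activate latent TGF-β. It read 462 and 722 in DMSO but 58.4 and 51.7 in Dynasore. The DMSO duplicates differed more than those of any other tested member in that group, and yet both were far above the Dynasore arrays, with a log2 change of -2.61 (SE 0.52, adjusted p = 0.017). Only 0.185% of tested probes had a lower change, and this change remained between -2.96 and -2.27 when 1 array of DMSO, Dynasore or BMP-2+Dynasore was left out. The call was lost without Dynasore replicate 1 (adjusted p = 0.11), without Dynasore replicate 2 (adjusted p = 0.12) and without DMSO replicate 2 (adjusted p = 0.068). Amotl2, an angiomotin family protein that binds YAP and restrains it, read 215 and 259 in DMSO and 46.9 and 40.0 in Dynasore. Its log2 change was -1.61 (SE 0.17, adjusted p = 3.9e-05).

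Ccn1, a matricellular integrin ligand formerly called Cyr61, changed less. It read 214 and 212 in DMSO and 108 and 96.2 in Dynasore, a log2 change of -0.77 (SE 0.16, adjusted p = 0.0032). Ccn4, known as a target of Wnt signaling and formerly Wisp1, read 2239.9 and 2122 in DMSO and 1107 and 1242 in Dynasore, a log2 change of -0.77 (SE 0.13, adjusted p = 8.8e-04). For both genes 9.57% and 9.62% of the tested probes, respectively, had a lower change, so these were moderate falls among all probes. A fit of all 8 arrays brings the gap of the BMP-2+DMSO arrays into the spread. The changes kept their size in it, but only Ccn2 (adjusted p = 0.014) and Ankrd1 (adjusted p = 0.040) were called. In that fit 1.54% of tested probes were called lower.

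**Figure D2:**
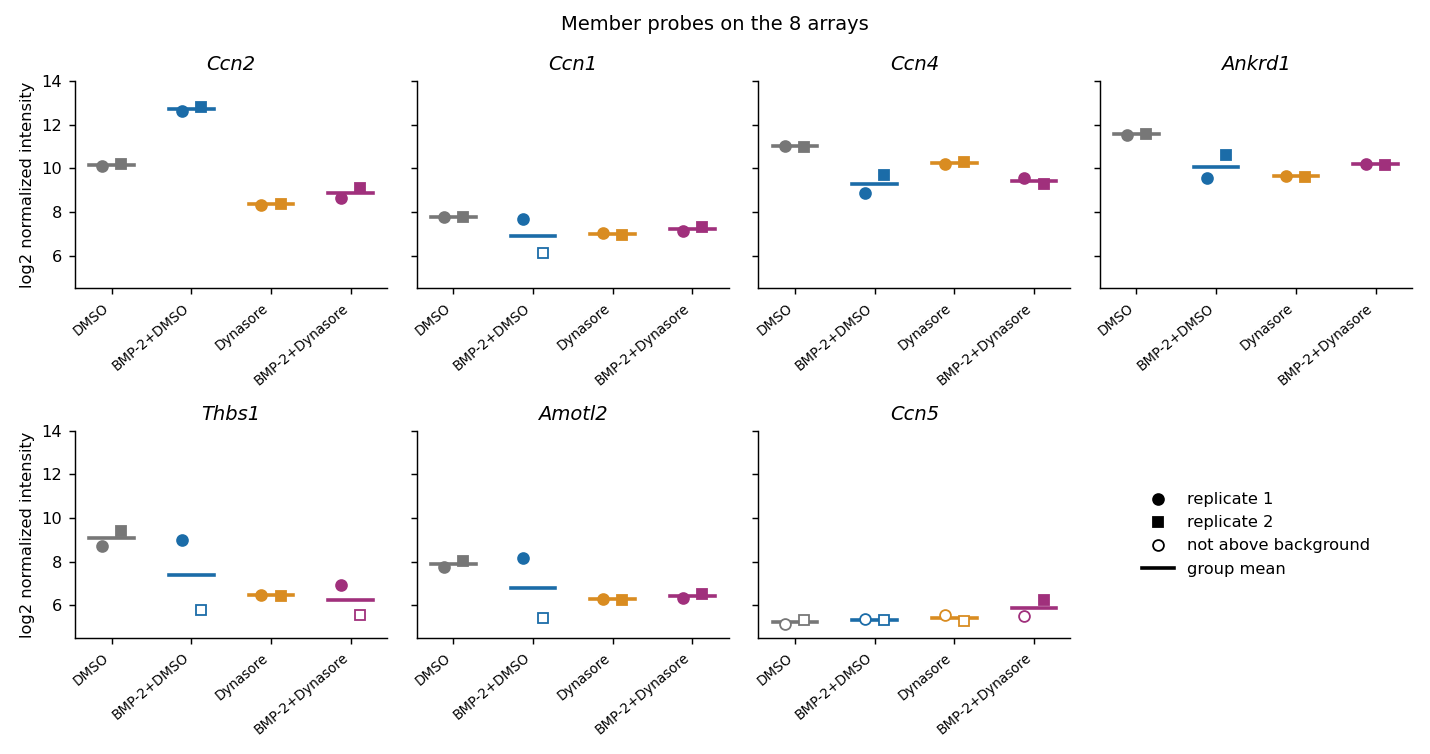
Log2 normalized intensity of each of the 7 probes on the 8 arrays, by group. Circles are replicate 1, squares replicate 2, open symbols were not above background and bars are group means. Ccn2 stands at 12.6 and 12.8 in BMP-2+DMSO and at 8.34 and 8.38 in Dynasore.

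**Figure D3:**
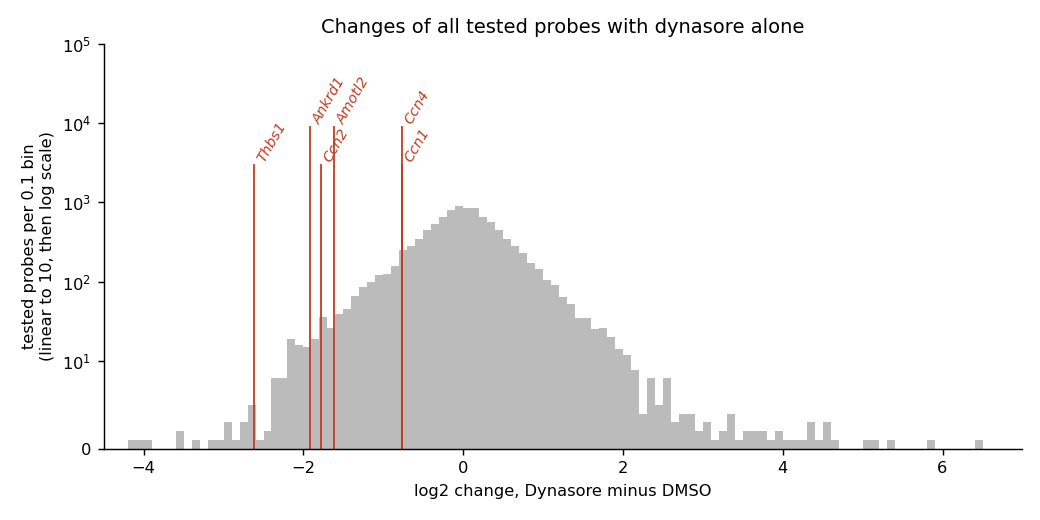
Distribution of the log2 change between Dynasore and DMSO over the 10244 tested probes, in bins of 0.1, with the count of probes on an axis that is linear up to 10 and logarithmic above. Vertical lines mark the 6 tested genes, which lie between -2.61 for Thbs1 and -0.77 for Ccn1 and Ccn4.

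With BMP-2 alone Ccn2 rose 5.95-fold and was the only gene of the set called. By their values, Ccn4 and Ankrd1 were lower on both BMP-2+DMSO arrays, and Ccn1, Thbs1 and Amotl2 read near their DMSO level on replicate 1 and were not above background on replicate 2. With both BMP-2+DMSO arrays, 1 gene was called higher and 0 lower, where 0.156% of tested probes were called higher and 0.0488% lower.

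The Ccn2 intensity was 6457 and 6782 in BMP-2+DMSO against 1183 and 1229 in DMSO. Both BMP-2 arrays were high, and the log2 change was 2.57 (SE 0.23, adjusted p = 0.017 in limma with 8 arrays), a change that 0.146% of tested probes exceeded. With replicate 1 alone the change was 2.50 (adjusted p = 2.9e-05) and with replicate 2 alone 2.65 (adjusted p = 7.1e-07). The change lay between 2.54 and 2.61 when 1 of the other 6 arrays was left out of the fit of all arrays, and the adjusted p then rose to between 0.092 and 0.43, so the call was lost whichever of them was removed. The duplicates of Ccn2 were close although those of the whole array were not.

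Ccn4 read 487 and 719.9 in BMP-2+DMSO, against 2239.9 and 2122 in DMSO. The 719.9 contains the raised background of replicate 2. Both arrays were lower than any DMSO array. The log2 change was -1.72 (SE 0.31, adjusted p = 0.16), at -2.14 with replicate 1 alone (adjusted p = 3.1e-05) and -1.31 with replicate 2 alone (adjusted p = 4.5e-05). Ankrd1 read 768 and 1387, against 3107 and 3109.9. Here too both arrays were lower than DMSO, and the log2 change was -1.48 (SE 0.34, adjusted p = 0.28), at -2.01 with replicate 1 alone (adjusted p = 1.4e-05) and -0.96 with replicate 2 alone (adjusted p = 1.1e-04). With replicate 1 alone 2.06% of tested probes were called higher and 2.54% lower, and with replicate 2 alone 41.3% and 28.1%. Calls from replicate 2 alone were thus common over the whole array.

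Thbs1 read 538 and 244, Ccn1 196 and 251, and Amotl2 296 and 236 on the BMP-2+DMSO arrays. The second value of each lay under the limit of 258 on replicate 2 and is no measured level. On replicate 1 alone the log2 changes from DMSO were -0.09 for Thbs1 (adjusted p = 0.99), -0.08 for Ccn1 (adjusted p = 0.95) and 0.28 for Amotl2 (adjusted p = 0.68). With both arrays they were -1.69, -0.86 and -1.09, with adjusted p from 0.49 to 0.50. With replicate 2 alone, where they rest on values under its limit, they were -3.29 for Thbs1 (adjusted p = 0.0081), -1.63 for Ccn1 (adjusted p = 4.2e-05) and -2.45 for Amotl2 (adjusted p = 3.5e-06). Other probes were lost on replicate 2 as well. Of 7703 probes above background on the other 7 arrays, 18.2% were not above it there, and of the 1908 among them with a DMSO level between those of Ccn1 and Thbs1, 19.9% were not.

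With dynasore present, 1 gene of the set was called between the cells with and without BMP-2, and it was lower. Ccn2 read 309 and 327 in Dynasore and 405 and 551 in BMP-2+Dynasore, which were higher without overlap. The log2 change was 0.51 (SE 0.15), with an adjusted p of 0.23 in limma with 7 arrays, and 2.09% of tested probes had a higher change. Without BMP-2+Dynasore replicate 1 it was 0.73 (adjusted p = 8.0e-04). Ankrd1 rose from 793 and 799.5 to 1183 and 1154 in intensity, by 0.54 on the log2 scale (SE 0.11), with an adjusted p of 0.051, and 1.70% of tested probes had a higher change. It was called at 0.56 without BMP-2+Dynasore replicate 2 (adjusted p = 0.024) and at 0.53 without BMP-2+Dynasore replicate 1 (adjusted p = 0.0071).

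The gene called was Ccn4. It read 1107 and 1242 in Dynasore and 763 and 623 in BMP-2+Dynasore, a log2 change of -0.82 (SE 0.13, adjusted p = 0.013), where 0.225% of tested probes were called lower and 0.654% higher. Of the tested probes, 1.39% had a lower change. The call was lost with all 8 arrays (adjusted p = 1.0), without DMSO replicate 1 (adjusted p = 0.050), without Dynasore replicate 1 (adjusted p = 0.11) and without Dynasore replicate 2 (adjusted p = 0.22), while the change stayed between -0.96 and -0.67 with 1 array left out. Ccn4 was thus lower with BMP-2 on every array of both backgrounds. Ccn1 read 117 and 150.0, Amotl2 50.7 and 83.2, and Thbs1 97.2 and 44.6 in BMP-2+Dynasore. The last Thbs1 value was not above the limit of 62.0 on that array. The log2 changes from Dynasore were 0.22 for Ccn1, 0.16 for Amotl2 and -0.20 for Thbs1, with adjusted p of 0.62, 0.74 and 0.91. Without BMP-2+Dynasore replicate 1, Thbs1 was called lower at -0.88 (adjusted p = 0.013), which rests on that dim value.

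**Figure D4:**
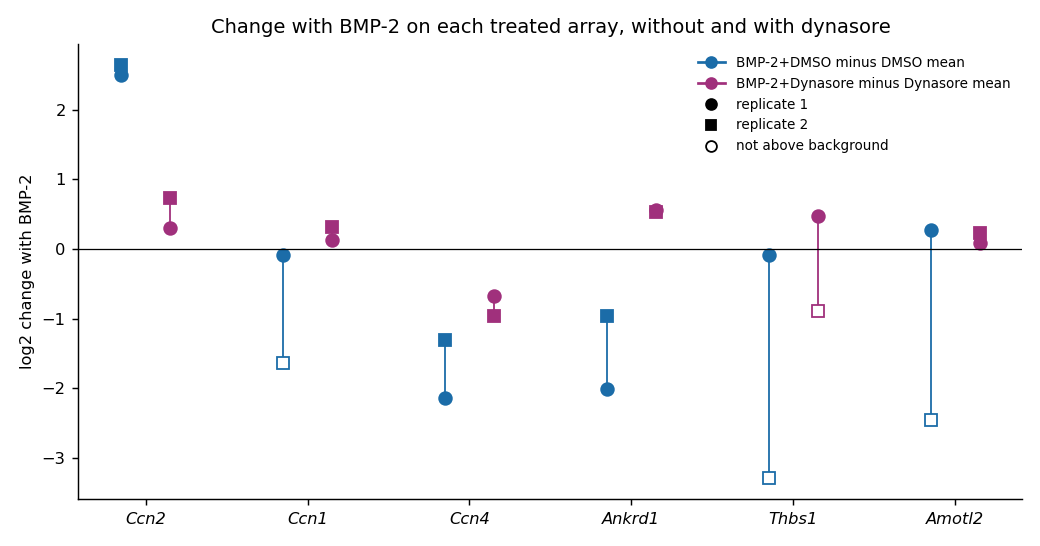
Log2 change with BMP-2 of each treated array from the mean of its control group, without dynasore (BMP-2+DMSO minus DMSO) and with it (BMP-2+Dynasore minus Dynasore). Circles are replicate 1, squares replicate 2, and open symbols were not above background. Ccn2 stands at 2.50 and 2.65 without dynasore, and Ankrd1 at -2.01 and -0.96 without and 0.56 and 0.53 with dynasore.

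The genes were all low when dynasore and BMP-2 were given together. Compared with DMSO all 6 tested genes were called lower in BMP-2+Dynasore, as were 18.9% of tested probes, and 19.5% were called higher. The comparison shares its DMSO arrays with that of dynasore alone. The log2 changes were -2.82 for Thbs1 (adjusted p = 0.013; 1 of its BMP-2+Dynasore arrays was not above background), -1.58 for Ccn4 (adjusted p = 5.8e-06), -1.45 for Amotl2 (adjusted p = 7.4e-05), -1.37 for Ankrd1 (adjusted p = 4.8e-06), -1.27 for Ccn2 (adjusted p = 7.8e-05) and -0.54 for Ccn1 (adjusted p = 0.020). With all 8 arrays Ccn2 (adjusted p = 0.037) and Ccn4 (adjusted p = 0.048) were called, where 1.57% of tested probes were called lower and 1.98% higher. Leaving out either DMSO array ended the call of Ccn1 (adjusted p = 0.11 in both cases), and Thbs1 was not called without DMSO replicate 2 (adjusted p = 0.054), without Dynasore replicate 1 (adjusted p = 0.052) or without Dynasore replicate 2 (adjusted p = 0.052).

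Under BMP-2, the effect of dynasore was called for Ccn2 alone. BMP-2+Dynasore lay 14.3-fold below BMP-2+DMSO, at 405 and 551 against 6457 and 6782. The log2 change of -3.84 (SE 0.23, adjusted p = 0.0015 in limma with 8 arrays) was the 4th lowest of the 10244 tested probes, of which 1.84% were called lower and 1.75% higher. It was -3.77 with replicate 1 of BMP-2+DMSO alone (adjusted p = 3.2e-07) and -3.92 with replicate 2 alone (adjusted p = 3.2e-08). The adjusted p was between 0.015 and 0.048 when 1 of the other arrays was left out. The arrays of the other 5 genes overlapped between these groups. Ccn4 differed by 0.14 and Ankrd1 by 0.12 on the log2 scale (adjusted p = 0.79 and 0.85), and the sign of both turned with the BMP-2+DMSO array that was used. With replicate 1 alone they were higher by 0.55 (Ccn4, adjusted p = 0.026) and 0.64 (Ankrd1, adjusted p = 0.0051), and with replicate 2 alone they stood at -0.27 (adjusted p = 0.15) and -0.41 (adjusted p = 0.018). Thbs1, Amotl2 and Ccn1 differed by -1.13, -0.37 and 0.31 (adjusted p = 0.52, 0.79 and 0.72). With replicate 1 alone, for which 15.5% of tested probes were called higher and 13.5% lower, Thbs1 was lower by -2.73 (adjusted p = 0.041), where its value on BMP-2+Dynasore replicate 2 was not above background. Amotl2 was lower by -1.73 (adjusted p = 1.5e-04), and Ccn1 stood at -0.46 (adjusted p = 0.099). With replicate 2 alone, on which the 3 genes were not above background, Thbs1 stood at 0.47 (adjusted p = 0.55), Amotl2 at 1.00 (adjusted p = 0.0016) and Ccn1 at 1.09 (adjusted p = 5.8e-04), and 28.7% of tested probes were called higher and 38.4% lower.

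The levels thus fell into different orders. Ccn2 was highest in BMP-2+DMSO, then in DMSO, then in BMP-2+Dynasore and lowest in Dynasore, and of these neighbours the last pair did not differ at the threshold (adjusted p = 0.23), while BMP-2+DMSO and DMSO did so with all arrays but not with 1 of the others left out. Ccn4 was highest in DMSO and next in Dynasore, and its log2 levels in the groups with BMP-2 overlapped. Ankrd1 was highest in DMSO, and its BMP-2+DMSO arrays, at 768 and 1387, overlapped both the Dynasore and the BMP-2+Dynasore arrays, of which the latter were higher. Ccn5, which encodes a CCN protein without the C-terminal domain of its relatives and was formerly called Wisp2, read -13.8 and -8.15 in DMSO, -3.78 and 233 in BMP-2+DMSO, 13.2 and -2.03 in Dynasore and 10.8 and 70.3 in BMP-2+Dynasore. Only 70.3 was above the limit of its array, so no level of Ccn5 was measured in the other groups.

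The interaction, which is the BMP-2 response with dynasore minus that with DMSO, was not called for any gene of the set with all 8 arrays. Of 10244 probes, 0 were called in either direction (0%) by limma, and 116 were higher and 113 lower at an unadjusted p under 0.05. Ccn2 had a value of -2.06 (SE 0.32) and Ankrd1 one of 2.03 (SE 0.48), both with an adjusted p of 0.91. For Ccn2 it was -1.98 with replicate 1 of BMP-2+DMSO alone (adjusted p = 0.0044) and -2.13 with replicate 2 alone (adjusted p = 4.7e-05). For Ankrd1 it was 2.56 (adjusted p = 1.7e-04) and 1.50 (adjusted p = 5.7e-05). With replicate 1 alone 0.752% of probes were called higher and 0.342% lower, and with replicate 2 alone 23.3% and 32.9%. The Ccn2 and Ankrd1 values thus had the same sign with either array, and passed the threshold only where the spread of the BMP-2+DMSO duplicates was left out. Ccn4 had 0.91 (SE 0.44, adjusted p = 0.91) with all arrays, 1.32 with replicate 1 alone (adjusted p = 0.016) and 0.50 with replicate 2 alone (adjusted p = 0.061).

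The probes whose log2 values were most like those of Ccn2 over the 8 arrays belonged to Prelp, Tbx3, C1qtnf3, Cemip2 and Lxn, with a Pearson r of 0.993, 0.985, 0.982, 0.981 and 0.980. The arrays of a group share their treatment, so these are descriptions. Without BMP-2+DMSO replicate 2 the values were 0.993, 0.993, 0.972, 0.986 and 0.978. Prelp encodes a leucine-rich proteoglycan of the matrix. It read 388 and 353 in DMSO, 6262 and 9278 in BMP-2+DMSO, 49.98 and 52.2 in Dynasore and 91.8 and 141 in BMP-2+Dynasore, so its groups followed the order of Ccn2. Tbx3, a T-box transcription factor, read 275 and 252, 724 and 483, 116 and 86.9, and 121 and 145 in the same order of groups. The 483 comes from BMP-2+DMSO replicate 2, where dim probes peaked at 242.

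Other genes of these pathways did not move with dynasore as a block. Of 11 tested further targets of YAP and TEAD, 6 were called lower and 2 higher with dynasore alone. Their median log2 change was -0.47, against -0.0029 over all tested probes. The counts of called genes in this and the following lists stand against 19.5% of all tested probes called lower and 17.9% called higher. Nuak2, a kinase related to AMPK, changed by -1.76 on the log2 scale (adjusted p = 4.6e-05), Ccdc80, a matrix protein, by -1.53 (adjusted p = 9.8e-06) and Tgfb2, a TGF-β ligand that also stands in the list of ligands, by -1.26 (adjusted p = 3.4e-04). Ptpn14, a phosphatase that binds YAP, was higher by 1.50 (adjusted p = 5.4e-05). Of 13 tested Hippo pathway and TEAD genes, 4 were higher and 2 lower, with a median of 0.11. The share of lower genes was thus under that of all probes, and the share of higher genes was over it. Wwc1 (1.67, adjusted p = 2.1e-05) and Frmd6 (1.23, adjusted p = 1.1e-04), upstream members of the pathway, were higher. Wwc1 read 15.9 and 25.1 in DMSO, not above background, and 199.6 and 192.5 in Dynasore. Its change is thus taken from values that are no measured level. Wwtr1, which encodes TAZ, was also higher (1.22, adjusted p = 2.8e-04), and Tead2 was lower (-1.10, adjusted p = 3.8e-05). Yap1 itself was at -0.20 (adjusted p = 0.34).

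Of 13 tested genes for TGF-β ligands, receptors, Smads and latent binding proteins, 4 were lower in Dynasore and 0 higher, with a median of -0.27. Tgfb3 read 1415 and 1255 in DMSO and 178 and 162 in Dynasore, a log2 change of -2.74 (adjusted p = 3.5e-07). The type II receptor Tgfbr2 read 3553 and 3509 in DMSO and 1168 and 1299 in Dynasore, a log2 change of -1.43 (adjusted p = 5.1e-06). Smad3 was lower by -0.65 (adjusted p = 0.0068). Other targets of TGF-β and Smad3 went both ways, with 7 of 17 higher and 7 lower and a median of -0.11. They ranged from Bhlhe40, a transcriptional repressor, at 2.58 (adjusted p = 2.2e-07) and Plod2, a collagen lysyl hydroxylase, at 1.83 (adjusted p = 4.4e-04) to Pmepa1, a feedback inhibitor of the pathway, at -1.20 (adjusted p = 5.3e-04) and Angptl4, a secreted inhibitor of lipoprotein lipase, at -1.84 (adjusted p = 5.7e-06).

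Of 4 tested thrombospondin relatives and receptors 3 were lower and 0 higher. The receptor Cd47 changed by -0.86 (adjusted p = 1.9e-04), Thbs2 by -0.70 (adjusted p = 0.0011) and Thbs3 by -0.68 (adjusted p = 0.016). Of 10 tested receptors and co-receptors of CCN proteins, 2 were higher, the heparan sulfate proteoglycan Sdc4 (1.29, adjusted p = 3.2e-04) and the integrin Itgav (1.03, adjusted p = 3.2e-04), and 1 was lower, the integrin Itgb5 (-1.16, adjusted p = 4.5e-04), with a median near 0 at 0.00076, so their shares were near or under those of all tested probes. With all 8 arrays the lower calls over these lists were reduced to Ccdc80 (adjusted p = 0.016) and Tgfbr2 (adjusted p = 0.014), and the higher calls to Frmd6 (adjusted p = 0.030) and Bhlhe40 (adjusted p = 0.021). The myoblast markers moved alongside. Of 5 tested, 4 were called lower in Dynasore and 0 higher, and with all 8 arrays 0 were called. The summed intensity of the 6 markers was 10997 to 11229 in DMSO and 8069.7 to 10991 in BMP-2+DMSO. It was 5709 to 6094 in Dynasore and 4447 to 5219 in BMP-2+Dynasore. Des alone read 7008 and 7202 in DMSO. The 10991 and 4447 come from the replicate 2 arrays with BMP-2, whose background was raised. On BMP-2+DMSO replicate 2, Myod1, Myog, Itga7 and Myf5 were not above background. The part of the myoblast markers in the fall of the set was not tested. The 9 markers of other cell types summed to between -23.3 and 39.1 in DMSO, between 6.60 and 2169 in BMP-2+DMSO, between 100.4 and 181 in Dynasore and between 112 and 412 in BMP-2+Dynasore. The sums of 2169 and 412 come from the replicate 2 arrays, whose background was raised.

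**Figure D5:**
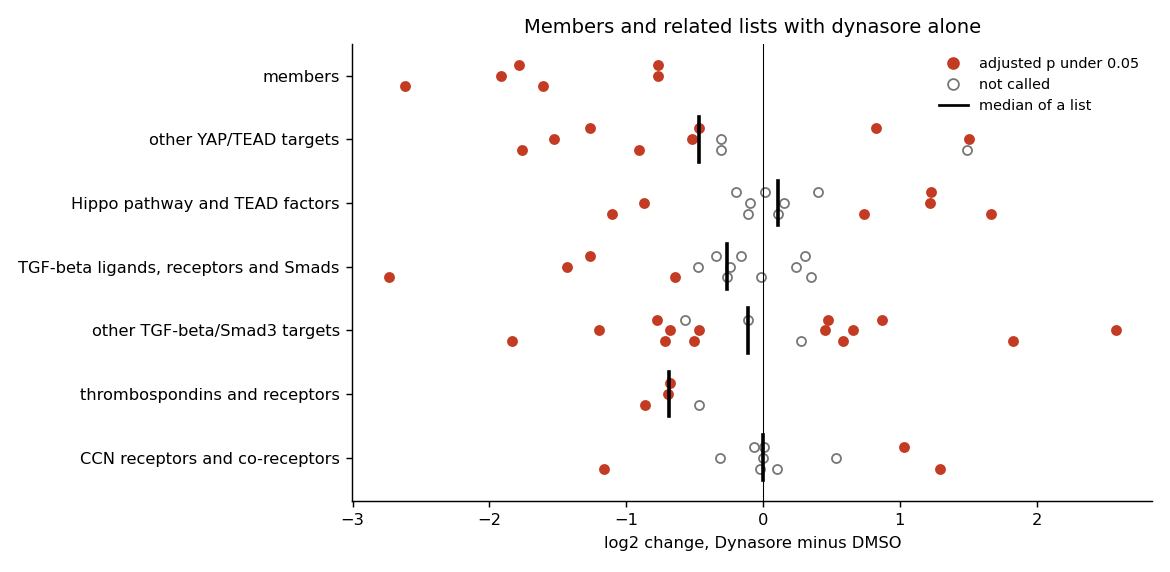
Log2 change between Dynasore and DMSO for the 6 tested genes and for related lists, 1 point per gene. Filled points had an adjusted p under 0.05 in limma, and the vertical bar is the median of a list. The tested genes of the set all lie below 0. The other targets of TGF-β and Smad3 lie on both sides, with 7 called higher and 7 called lower.

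In BMP-2+DMSO against DMSO, with all 8 arrays, 1 other YAP and TEAD target and 1 other TGF-β target were called, both lower, as were 0.0488% of tested probes. Both calls were lost when any 1 of the 6 arrays of the other groups was left out, since 0 probes were then called lower. Gadd45a, a stress-induced growth arrest gene, read 4103 and 4982 in DMSO and 845 and 391 in BMP-2+DMSO, a log2 change of -2.92 (adjusted p = 0.044), at -2.41 with replicate 1 alone and -3.43 with replicate 2 alone. It stood at 7432 and 7620.5 in Dynasore and 5902 and 5498 in BMP-2+Dynasore, so the BMP-2+DMSO arrays alone were low. Angptl4 changed by -3.01 (adjusted p = 0.048), at -3.51 and -2.52 with replicate 1 and replicate 2 alone. In BMP-2+Dynasore against BMP-2+DMSO, Gadd45a was higher by 3.31 (adjusted p = 0.0060), Ptpn14 by 1.71 (adjusted p = 0.034) and Frmd6 by 1.12 (adjusted p = 0.038), while Rbms3 was lower by -1.82 (adjusted p = 0.025), Ccdc80 by -1.37 (adjusted p = 0.021), Wwc2 by -0.99 (adjusted p = 0.045) and Tgfbi, a matrix protein induced by TGF-β, by -2.28 (adjusted p = 0.024), where 1.75% of tested probes were called higher and 1.84% lower. Tgfbi read 149.5 and 341 in BMP-2+DMSO but 10.6 and 46.2 in BMP-2+Dynasore, where neither value was above background. It passed the filter only through both BMP-2+DMSO arrays, where it was high, and DMSO replicate 1. The size of its change thus rests on values that are no measured level. With replicate 1 of BMP-2+DMSO alone the changes were 2.80 for Gadd45a, 1.50 for Ptpn14, 1.21 for Frmd6, -1.57 for Rbms3, -1.33 for Ccdc80, -1.16 for Wwc2 and -1.82 for Tgfbi. With replicate 2 alone they were 3.82, 1.93, 1.04, -2.07, -1.41, -0.82 and -2.75 in the same order. Far fewer probes were called in this comparison over the whole array when 1 array of the other groups was left out. In BMP-2+Dynasore against Dynasore, 0.654% of tested probes were called higher and 0.225% lower in limma. There the transcription factor Snai1 (1.25, adjusted p = 0.0018) and the Smad corepressor Skil (0.79, adjusted p = 0.033) were the only called genes of these lists. Both are among the 17 other targets of TGF-β and Smad3, and neither was called with all 8 arrays.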

How the data were processed

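RNA of C2C12 cells in 4 groups of 2 was hybridized to Illumina mouse BeadChips. The authors deposited intensities per probe, on a linear scale, normalized by the rank invariant method of BeadStudio 3.0. Some lie below 0, so background had been subtracted on the arrays that hold them. None do on BMP-2+DMSO replicate 2, whose lowest value was 203, or on BMP-2+Dynasore replicate 2, whose lowest was 7.13. A table of signals before normalization was not used, because its 8 numbered signal columns could not be matched to samples, nor were its detection p-values. In R 4.3.3 with limma 3.58.1, intensities were corrected by normexp (offset 16), quantile normalized over 8 arrays and put on the log2 scale. The background limit of an array lay 1.645 SD over the peak of its dim probes, and a probe was tested when above it on at least 2 arrays. The 4 groups were fitted together (lmFit, eBayes with trend and robust), with Benjamini-Hochberg adjustment over 10244 of 18138 probes and a threshold of 0.05. Comparisons with BMP-2+DMSO used 8 arrays (4 residual degrees of freedom) and the others 7 (3), namely those in the significance test of the study's methods, found by matching the log2 values of its gene tables within 0.1 (98.96% of 483 for BMP-2+DMSO replicate 2 and 1.24% for replicate 1). The small number of arrays limits the precision.

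The genes and lists were chosen with earlier results of these data known. Every probe of the 7 genes is described, with up to 4 called genes of a list with the largest change and the 5 probes most like Ccn2. Yap1 and Smad3 were named outside this rule, as were values for genes named in another comparison, after their values were seen. Probe symbols came from the platform annotation, in which 16886 probes had 1 symbol and 1252 had none. The procedure was tested on simulated data. Alternatives changed the arrays fitted, the background correction, the normalization, the filter and the variance model, added the replicate number as a block or left out single arrays. A fit of 6 arrays without BMP-2+DMSO was chosen after seeing the data.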

Additional observations from a re-analysis of the deposited data

Results flagged for a closer look

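By its values, the BMP-2 response of Ankrd1 had opposite signs without and with dynasore. Neither response was called (adjusted p = 0.28 without and 0.051 with dynasore in limma). Relative to their control means, the BMP-2+DMSO arrays stood at -2.01 and -0.96 and the BMP-2+Dynasore arrays at 0.56 and 0.53 on the log2 scale, and the difference of the responses was 2.03 (adjusted p = 0.91 in limma with 8 arrays).

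Ccn1 had the same order of signs, at -0.08 and -1.63 without and 0.13 and 0.32 with dynasore, and a difference of 1.08 (adjusted p = 0.91 in limma). The value of -1.63 comes from BMP-2+DMSO replicate 2, on which Ccn1 was not above background.

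Ccn5, which entered no comparison, read 70.3 on BMP-2+Dynasore replicate 2, above the limit of 62.0 of that array. On the other arrays it was not above background.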

How the results depend on the processing

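Of 576 values of single genes under alternatives, 510 kept their direction and side of the threshold, 30 lost a call, 26 gained a call and 10 turned sign. Lower calls of the 6 tested genes in Dynasore and in BMP-2+Dynasore against DMSO fell from 6 to 2 with all 8 arrays and to 3 when probes had to be above background on every array, a filter that only Ccn2, Ccn4 and Ankrd1 passed. In BMP-2+Dynasore against Dynasore the lower call of Ccn4 was lost (0 genes) with all 8 arrays, without quantile normalization, with equal medians and without trend and robust, and with single arrays left out 0 to 2 genes were lower and 0 to 2 higher. With the filter on every array, 1 gene was higher. In BMP-2+DMSO against DMSO, leaving out arrays gave 0 to 1 higher and 0 to 5 lower, and 1 gene, Ccn4, was lower without quantile normalization. In BMP-2+Dynasore against BMP-2+DMSO the ranges were 0 to 2 higher and 1 to 3 lower, and in the interaction 0 to 4 higher and 0 to 1 lower. The cause was not tested.

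Without BMP-2+DMSO replicate 1, the change of BMP-2+Dynasore from BMP-2+DMSO turned to -0.27 for Ccn4, 0.47 for Thbs1, -0.41 for Ankrd1 and 1.00 for Amotl2. Without BMP-2+DMSO replicate 2 it was -0.46 for Ccn1, the change of Amotl2 with BMP-2 was 0.28, and the interaction was -0.12 for Thbs1 and -0.12 for Amotl2. Without BMP-2+Dynasore replicate 1, Ccn4 differed from BMP-2+DMSO by -0.0019, and without BMP-2+Dynasore replicate 2 Thbs1 differed from Dynasore by 0.47. With arrays left out, these values ranged for BMP-2+Dynasore against BMP-2+DMSO from -0.46 to 1.09 (Ccn1), -0.27 to 0.55 (Ccn4), -2.73 to 0.47 (Thbs1), -0.41 to 0.64 (Ankrd1) and -1.73 to 1.00 (Amotl2), for Amotl2 with BMP-2 from -2.45 to 0.28, for Thbs1 with BMP-2 under dynasore from -0.88 to 0.47, and for the interaction from -0.12 to 3.09 (Thbs1) and -0.12 to 2.61 (Amotl2).

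The labels do not say that a replicate number marks a shared batch, and the correlation of the deviations ran from -0.28 to 0.50 between groups. With the replicate block the higher count in BMP-2+DMSO against DMSO went from 1 to 0, as Ccn2 had an adjusted p of 0.053 in limma. The block changed no other call of the 6 genes, and it moved the calls over all probes in that comparison from 16 higher and 5 lower to 6 and 0, and in BMP-2+Dynasore against BMP-2+DMSO from 179 and 188 to 103 and 103.

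Over all probes, for Dynasore against DMSO 1838 probes were higher and 1996 lower with 7 arrays and 171 and 158 with 8. For BMP-2+Dynasore against DMSO the counts were 1997 and 1940 with 7 arrays and 203 and 161 with 8, and for BMP-2+Dynasore against Dynasore 67 and 23 with 7 and 2 and 0 with 8. For BMP-2+DMSO against DMSO they were 211 and 260 with replicate 1 alone and 4230 and 2881 with replicate 2 alone. With single arrays left out the higher and lower counts fell as far as 1169 and 1276 in Dynasore against DMSO, lower calls in BMP-2+Dynasore against DMSO fell to 1238, and the counts ranged from 34 to 692 and 5 to 953 in BMP-2+Dynasore against Dynasore. The ranges were 0 to 4230 and 0 to 2881 in BMP-2+DMSO against DMSO, 3 to 2945 and 3 to 3937 in BMP-2+Dynasore against BMP-2+DMSO, and 0 to 2382 and 0 to 3374 in the interaction. Lower calls with BMP-2 alone numbered 16 without quantile normalization, 13 with equal medians and 9 with the filter on every array. For BMP-2+Dynasore against Dynasore they numbered 8 with equal medians and 36 with that filter, and 6, with 43 higher, without trend and robust. For BMP-2+Dynasore against BMP-2+DMSO, 344 rose and 325 fell without quantile normalization, and 311 fell with the filter.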
